A study of Mus musculus with 6 samples.

Results

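Nr3c2 and Nr3c1 encode the mineralocorticoid and the glucocorticoid receptor, and both genes carried peaks of the transcription factor Ikaros in mouse natural killer (NK) cells. The data were chromatin immunoprecipitation with sequencing (ChIP-seq). The members were taken by name, as the rows of the authors' peak lists whose gene column reads Nr3c1 or Nr3c2. That gave 6 of 4809 rows, 2 in each of 3 lists, out of 4111 peaks in all. The members were thus selected by the peak calls themselves, so the presence and height of these peaks are given as a description, with no test.

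The series held 3 Ikzf1 KO libraries, from NK cells in which Ikzf1, the Ikaros gene, was deleted conditionally through NKp46, and 3 WT libraries. All were made from splenic NK cells expanded outside the animal with IL-15 at 50 ng/ml, and all were precipitated with the same antibody to Ikaros. The KO libraries were not analysed here, so no comparison with cells lacking Ikaros was made. Which control the authors' fold enrichments were taken against is not stated. The WT lists of replicates 1, 2 and 3 held 685, 2084 and 1342 peaks. Whether separate mice or cultures gave the 3 WT libraries is not stated, so technical and biological differences between the lists cannot be told apart. A peak is not a measure of expression, so the NK label could not be checked on RNA. Among NK marker genes 3 of 11 (Klrb1c, Gzma and Gzmb) were named at a peak in any list, and among T cell, B cell and myeloid markers 0 of 8, 0 of 6 and 0 of 6 were, against 9.39% of all protein-coding genes. In 2 or more lists Klrb1c was the 1 NK marker left of 11 (9.09%, against 4.38% of protein-coding genes). Lists this short do not show whether the marker groups differ.

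Both receptors are nuclear receptors of the NR3 subfamily, transcription factors that sit in the cytoplasm with HSP90 chaperones until a steroid binds them and then move to the nucleus, where they bind glucocorticoid response elements. The glucocorticoid receptor is present in nearly all leukocytes, and glucocorticoids are known to damp NK cell killing and interferon-gamma production. The mineralocorticoid receptor binds aldosterone and also corticosterone, and is best known from kidney epithelium. Ikaros binds DNA through zinc fingers that recognise a GGGAA core.

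At Nr3c2 (ENSMUSG00000031618) the lists shared 1 strong, wide peak. Fold enrichment, as the authors gave it for each peak within its own list, was 7.17, 13.1 and 8.67 in WT replicates 1, 2 and 3, against list medians of 5.10, 4.73 and 4.99. The peak stood at rank 77 of 685, 44 of 2084 and 83 of 1342 in its list. As percentiles of fold enrichment within a list, where 100 is the strongest peak, these ranks were 88.9, 97.9 and 93.9 (mean 93.6 ± 4.52, SD, n = 3). All 3 values lay in the upper part of their list, although lists of different lengths do not give ranks that can be compared as a change. The −log10 q was 8.38, 25.4 and 12.3, against list medians of 4.31, 3.96 and 4.40. Among genes carrying the authors' transcription factor mark, Nr3c2 had the 4th, 2nd and 3rd strongest peak, of 33, 106 and 76 such genes.

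The Nr3c2 peak lay far inside the gene, toward its 3′ side. In build mm10 the merged region ran over chr8:77221057-77221999, and 817 of its 943 bp were in the peak of every list. The RefSeq gene span, chr8:76898083-77245012, is 347 kb long, and the centre of the shared bases was 23.5 kb from its upper limit. The start site of the promoter that RefSeq lists for Nr3c2, on the plus strand, was 319 kb away. Exons and introns could not be assigned, since the gene table used here holds gene limits only.

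No peak of any list touched the 250 bases before that start site. They are shown here beside the 3 windows, of nuclear receptor and glucocorticoid pathway genes, that peaks overlapped in 2 or more lists. These belong to Bag1, a co-chaperone that binds the glucocorticoid receptor, Nr2c2, the orphan nuclear receptor TR4, and Nr2f6, another orphan receptor gene. Capitals mark GGGAA on either strand, which reads as TTCCC where it lies on the other one. The windows are chr8:76902080-76902329 (plus strand), chr4:40948295-40948544 (minus strand), chr6:92092183-92092432 (plus strand) and chr8:71381953-71382202 (minus strand) of GRCm38.p6, from RefSeq.
Nr3c2: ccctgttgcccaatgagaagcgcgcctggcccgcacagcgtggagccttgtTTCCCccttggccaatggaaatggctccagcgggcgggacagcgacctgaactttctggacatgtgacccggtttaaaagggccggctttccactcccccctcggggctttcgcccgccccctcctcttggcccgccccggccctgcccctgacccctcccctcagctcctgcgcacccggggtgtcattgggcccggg
Bag1: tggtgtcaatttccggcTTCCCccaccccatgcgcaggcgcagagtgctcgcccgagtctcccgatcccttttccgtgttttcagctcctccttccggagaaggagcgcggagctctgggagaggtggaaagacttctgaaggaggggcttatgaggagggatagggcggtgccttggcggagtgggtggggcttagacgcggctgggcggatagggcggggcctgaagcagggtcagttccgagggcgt
Nr2c2: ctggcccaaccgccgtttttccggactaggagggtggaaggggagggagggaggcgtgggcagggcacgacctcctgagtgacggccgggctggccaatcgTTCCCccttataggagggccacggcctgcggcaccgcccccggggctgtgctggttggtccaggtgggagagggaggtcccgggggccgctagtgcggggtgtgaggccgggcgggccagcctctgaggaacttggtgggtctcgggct
Nr2f6: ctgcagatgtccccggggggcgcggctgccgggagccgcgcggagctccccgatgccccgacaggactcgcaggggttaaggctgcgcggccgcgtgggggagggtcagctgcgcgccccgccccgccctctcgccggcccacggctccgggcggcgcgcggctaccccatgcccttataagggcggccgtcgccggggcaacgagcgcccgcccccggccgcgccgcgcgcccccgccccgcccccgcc
Peaks covered 250 bases of the Bag1 window in each list, and 1, 183 and 226 bases of the Nr2c2 window in WT replicates 1, 2 and 3. The Nr2f6 window was covered over 128 and 250 bases in WT replicates 2 and 3 and over 0 in WT replicate 1. The Nr3c2, Bag1 and Nr2c2 windows held 1 GGGAA each and the Nr2f6 window 0. Peaks in a single list overlapped the windows of Med14, with 3 GGGAA, and of Bcl2l11 and Hspa4, with 0, so 3 of 6 overlapped windows held the core. At least 1 GGGAA was in 56.2% of all 32851 promoter windows of this length. The longer form TGGGAA, which contains GGGAA, was in 0 of the 6 overlapped windows, not in that of Nr3c2, and in 21.6% of all. A match is a description of letters and not a binding site, and the bases under the Nr3c2 peak itself were not examined.

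At Nr3c1 (ENSMUSG00000024431) the lists also shared 1 peak, but a weak one. Fold enrichment was 4.06, 3.98 and 3.94 in WT replicates 1, 2 and 3, below the median of each list. The peak ranked 607 of 685, 1655 of 2084 and 1191 of 1342, which are percentiles of 11.5, 20.6 and 11.3 (mean 14.5 ± 5.31, SD, n = 3). The −log10 q was 1.70, 2.25 and 1.73, against list medians of 4.31, 3.96 and 4.40 and lowest values of 1.15, 1.06 and 1.12. In the same order, 40, 400 and 101 peaks had a lower −log10 q. Among genes marked as transcription factors it ranked 28th of 33, 84th of 106 and 67th of 76.

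**Figure D1:**
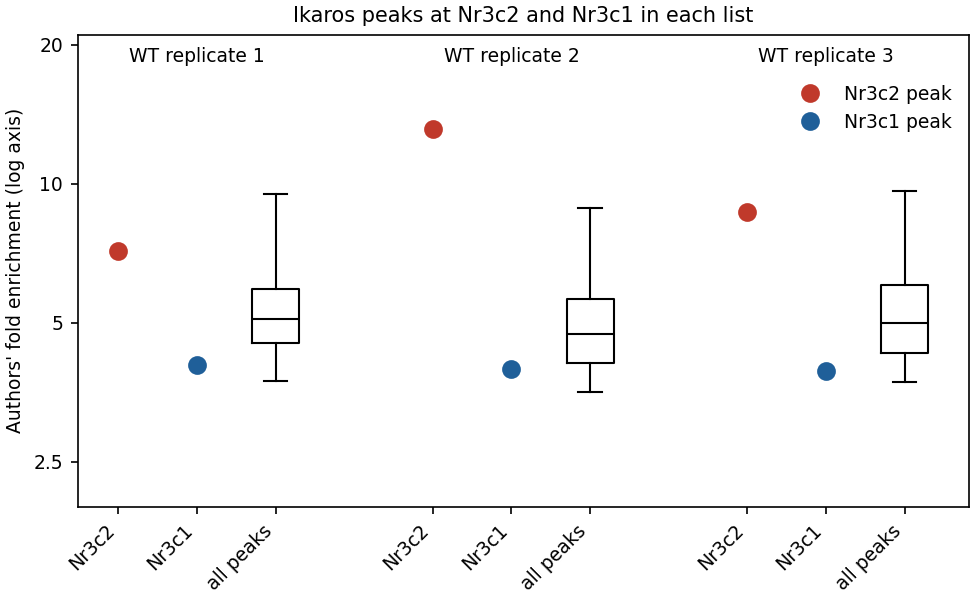
Fold enrichment of the Nr3c2 and Nr3c1 peaks in each WT list, on a log axis, beside all peaks of that list; boxes span the 25th to 75th percentile with the median, and whiskers reach the 5th and 95th. Nr3c2 sits above the box in every list (7.17, 13.1 and 8.67) and Nr3c1 below it (4.06, 3.98 and 3.94).

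Within each list the Nr3c2 peak was the stronger of the pair. The ratio of fold enrichment, Nr3c2 over Nr3c1, was 1.77, 3.30 and 2.20 in WT replicates 1, 2 and 3. The gap in percentile was 77.4, 77.3 and 82.6 points. The Nr3c2 values did not overlap those of Nr3c1 in the 3 lists, but how many other pairs of regions do the same was not counted. Ranked only among the 500 regions that all lists share, so that each list ranks the same regions, Nr3c2 had percentiles of 84.8, 91.4 and 84.4 and Nr3c1 had 7.20, 15.6 and 7.60.

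The Nr3c1 region was on chr18:39489567-39490433, inside the RefSeq span chr18:39410545-39519421. The gene is 109 kb long, and the centre of the shared bases was 29.2 kb from the upper limit and 79.6 kb from the lower one. RefSeq lists 15 transcript models for Nr3c1, of which 5 are curated, and 5 for Nr3c2, of which 1 is curated. The gene table gives only the outer limits over these models, so a start site inside the span would not have been seen. Each of the 6 peaks was assigned by the authors to its receptor gene alone, at a distance of 0.

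Lists placed the Nr3c2 peak more alike than the Nr3c1 peak. Widths at Nr3c2 were 817, 943 and 888 bp, at the 95.2, 95.3 and 94.2 percentile of widths in WT replicates 1, 2 and 3. At Nr3c1 they were 580, 867 and 373 bp, at the 87.4, 93.7 and 68.4 percentile. The bases common to all lists made up 86.6% of the merged region at Nr3c2 and 29.8% at Nr3c1, where the common part was chr18:39490051-39490308, 258 bp. The median over the 500 regions in all lists was 65.7%, and the receptors stood at the 85.4 and 11.6 percentile of those regions, Nr3c2 first.

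**Figure D2:**
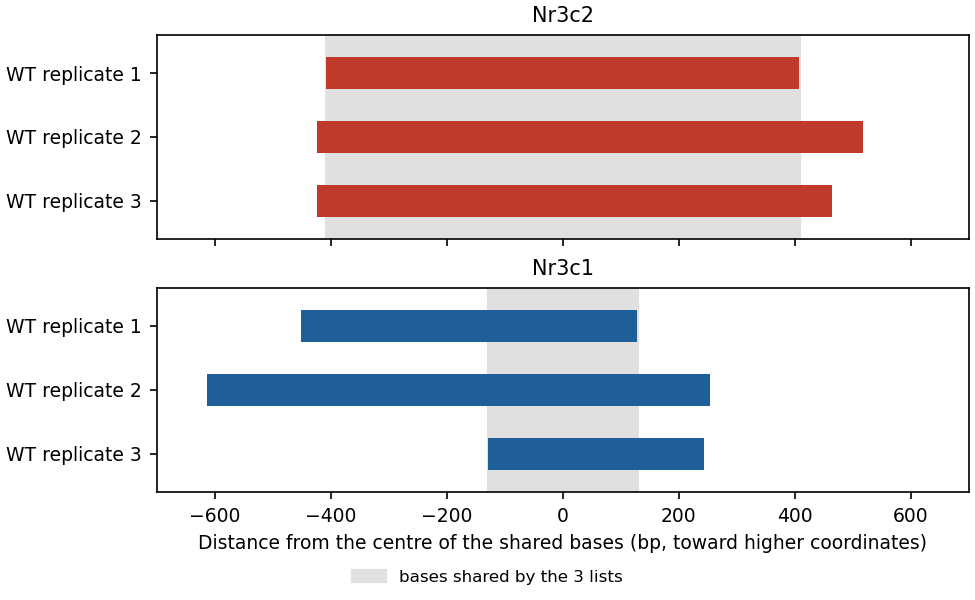
Extent of each list's peak at Nr3c2 (top) and Nr3c1 (bottom), in bp from the centre of the bases shared by the 3 lists (grey band). The Nr3c2 peaks nearly coincide over 817 bp, while the Nr3c1 peaks share 258 bp and differ most at the lower-coordinate edge.

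**Figure D3:**
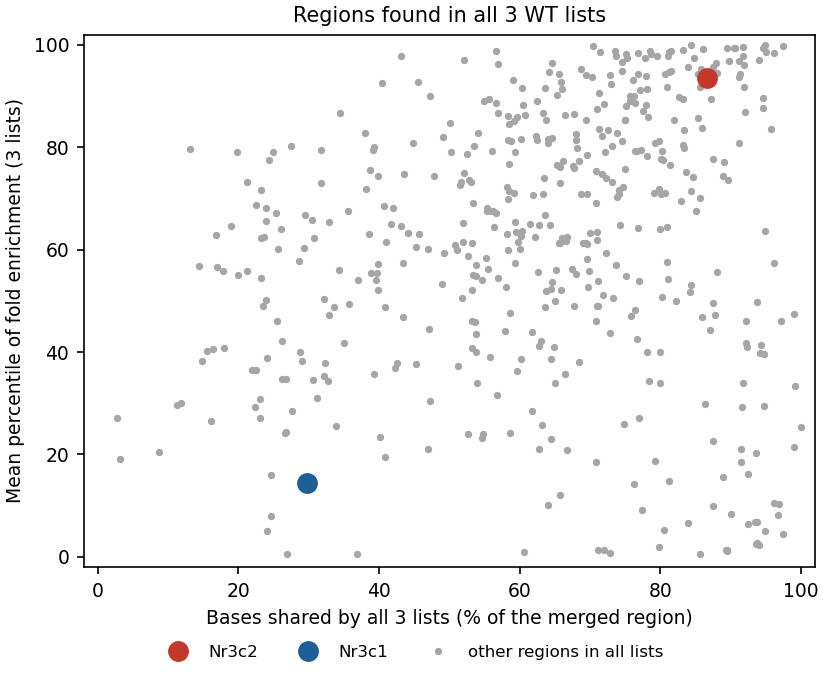
Each point is 1 of the 500 regions in all WT lists, by the share of its merged length that all lists cover (x axis, percent) and its mean percentile of fold enrichment (y axis). Nr3c2 is at 86.6% and 93.6, Nr3c1 at 29.8% and 14.5.

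Other shared regions also lay far from the outer limits of genes. Of the 500 regions in all lists, 175 lay within 1 protein-coding gene, and 51 of these were over 20 kb from both of its ends, a limit chosen after the positions were seen. Among the 51, ordered by mean percentile, Nr3c2 was 16th and Nr3c1 45th, and the median was 78.8. Start sites inside a span were not seen, so these regions may lie nearer to one. For Nr3c1, with 15 transcript models, no promoter was listed, and its distance from a start site is unknown.

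Neither receptor gene was named at another listed peak, and the nearest other peaks were far outside the gene. Beyond Nr3c2, a weak peak named for Arhgap10 and 0610038B21Rik lay 296 kb away in WT replicates 2 and 3, with fold enrichments of 3.74 and 4.55. In WT replicate 1 the nearest peak on that side was 1287 kb away, at Rbmxl1. Its fold enrichment was 7.19, slightly more than the 7.17 of the Nr3c2 peak in that list. Beside Nr3c1, a peak named for Pabpc2 lay 342, 341 and 341 kb away in WT replicates 1, 2 and 3, with 5.92, 4.85 and 4.82. On the other side, 858 kb away in each list, a peak at Arhgap26 had 9.21, 9.08 and 11.8, more than the Nr3c1 peak in every list.

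**Figure D4:**
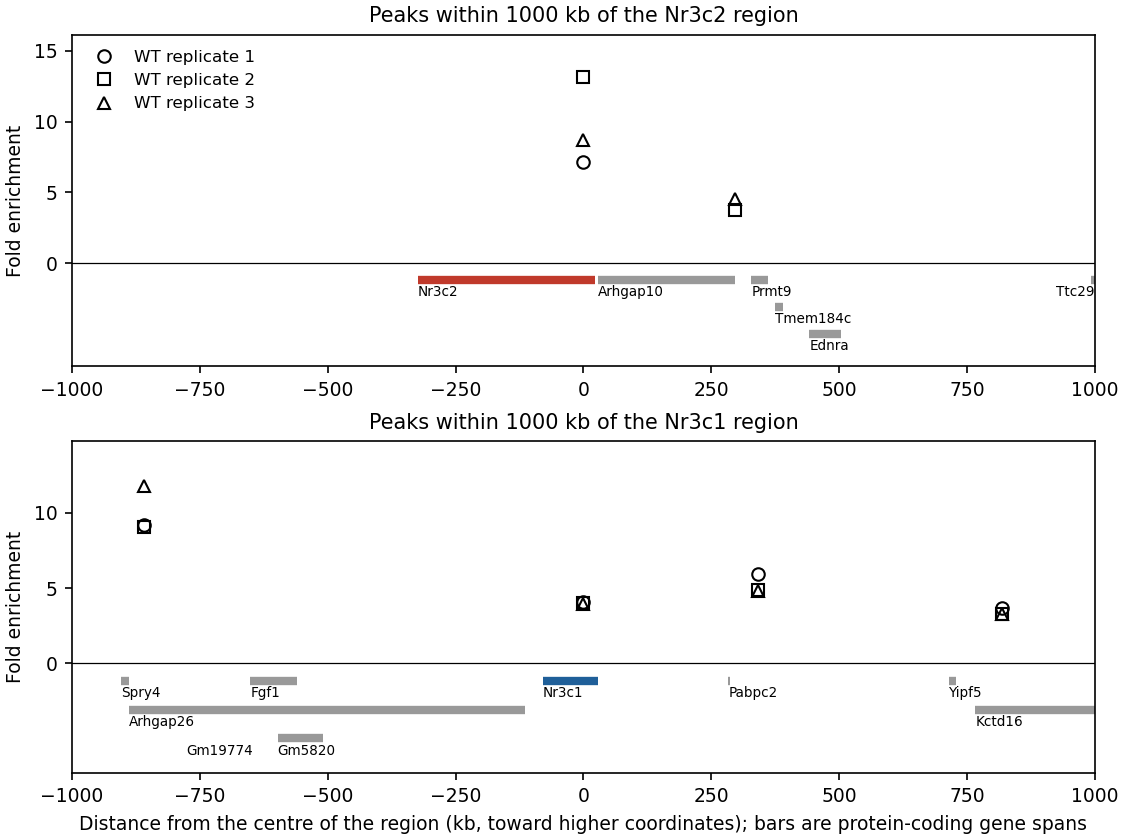
Fold enrichment of all peaks within 1000 kb of the Nr3c2 region (top) and the Nr3c1 region (bottom), by distance in kb from the region's centre; symbols mark the WT lists and bars the spans of protein-coding genes. In the Nr3c2 window WT replicate 1 has no other peak to compare with. In WT replicates 2 and 3 the Nr3c2 peak (13.1 and 8.67) is above the only other peak, named for Arhgap10 (3.74 and 4.55). The Nr3c1 peak is weaker than the one at Arhgap26 in each list.

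Regions of other genes with a like pattern were found by the largest difference in percentile over the 3 lists, among 422 regions of protein-coding genes in the same lists. Nearest to Nr3c2 were regions of Dnah7b (largest difference 1.12 points), Dnah7c (1.34) and the pair Fastkd5 and Ubox5 (1.46). Dnah7b and Dnah7c are similar dynein heavy chain genes, and whether reads were split between them was not tested. Nearest to Nr3c1 were Ccnd2, which encodes cyclin D2 (5.14), Tbc1d14 (5.22) and Mettl9 (7.15).

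Of the 49 nuclear receptor genes, 6 were named at a region in 2 or more lists (12.2%), against 4.38% of 21900 protein-coding genes. Nr3c2 and Nr3c1 are 2 of the 6 by choice, and 4 of the other 47 (8.51%) were Nr2c2, Nr1h3, Nr2f6 and Nr4a3. In all 3 lists there were 3 of 49, namely Nr3c2, Nr3c1 and Nr2c2. Without the 2 chosen genes that leaves 1 of 47 (2.13%), near the 2.00% of protein-coding genes. Without WT replicate 2, or without WT replicate 3, the count in 2 lists was 3 of 49, again Nr3c2, Nr3c1 and Nr2c2. The share of protein-coding genes was not computed for these settings. Of the same NR3 subfamily, Pgr, Esr1, Esr2, Esrra, Esrrb and Esrrg, which encode the progesterone, oestrogen and oestrogen-related receptors, had none in any list. The share of protein-coding genes in any list was 9.39%, so so few genes without a region do not set them apart.

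Nr3c2 had the strongest of these nuclear receptor peaks in every list. Nr2c2 came next in WT replicate 1 with a fold enrichment of 4.67, and had 3.73 and 5.75 in WT replicates 2 and 3. Nr1h3, which encodes the oxysterol receptor LXR alpha, had 5.02 and 5.33 in WT replicates 2 and 3, at a peak also named for Acp2 and Gm13783. Nr4a3, an immediate early orphan receptor gene, had 4.55 and 4.86 in the same lists, and Nr2f6 had 3.78 and 3.97. Rxra, the partner of many nuclear receptors, had 4.63 in WT replicate 2 only, and Rora had 5.90 in WT replicate 3 only. The Nr3c1 peak was lower than that of Nr2c2 in WT replicates 1 and 3 and higher in WT replicate 2.

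**Figure D5:**
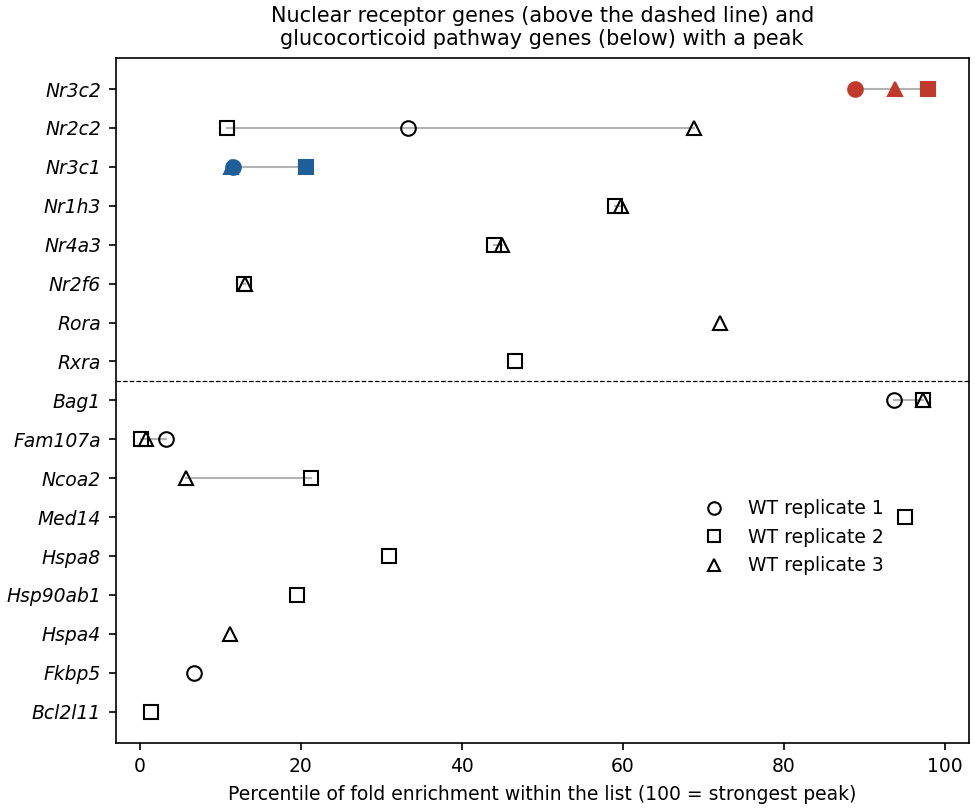
Percentile of fold enrichment within each WT list for every nuclear receptor gene (above the dashed line) and glucocorticoid pathway gene (below) with a peak; symbols mark the list. Nr3c2 (red) spans 88.9 to 97.9, Nr3c1 (blue) 11.3 to 20.6, and Bag1 93.7 to 97.3.

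The glucocorticoid pathway list held 48 genes that govern steroid access, act with the glucocorticoid receptor or lie downstream of it. Of these, 3 were named at a region in 2 or more lists (6.25%, against 4.38% of protein-coding genes). In any list there were 9 (18.8%, against 9.39%). Chaperones and immunophilins had 5 of 12 genes in any list and 1 of 12 in 2 or more. Bag1 had fold enrichments of 8.48, 11.4 and 13.0 in WT replicates 1, 2 and 3, at percentiles of 93.7, 97.3 and 97.3, and its peak was also named for Chmp5. Hsp90ab1 (3.94) and Hspa8 (4.25), which encode HSP90 and HSP70 family chaperones, were in WT replicate 2 only, and Hspa4 (3.94) in WT replicate 3 only. Fkbp5, the immunophilin gene that glucocorticoids induce in many cells, had a peak 794 bp from the gene in WT replicate 1 only, with 3.83. Bag1 was the 1 chaperone gene found in more than 1 list.

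Co-regulator genes had 2 of 13 with a peak in any list (15.4%, against 9.39% of protein-coding genes). In 2 or more lists they had 1 of 13 (7.69%, against 4.38%). Ncoa2, a p160 co-activator of steroid receptors, had 3.99 and 3.75 in WT replicates 2 and 3. Med14, a Mediator subunit, had 8.93 in WT replicate 2 only, at a peak also named for Gm14634. Genes of steroid access, among them Hsd11b1 and Hsd11b2, which interconvert active and inactive glucocorticoid, had 0 of 4. Genes known as glucocorticoid targets in other cells had 2 of 19 (10.5%, near the same 9.39%), Fam107a in all lists and Bcl2l11, the gene of the cell death protein BIM, with 3.20 in WT replicate 2 only. Tsc22d3, Dusp1, Per1 and Sgk1, which glucocorticoids induce in many cells, were among those with none.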

How the data were processed

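ChIP-seq of Ikaros was analysed from 3 deposited peak lists, 1 per WT library, matched to samples by the peak names. The list called WT replicate 3 has R4 in its names and was tied to the library titled rep 3 through its description, which ends in 4. Build mm10 and the tools MACS2, Subread, SAMtools, Picard and edgeR 3.20.0 were used, per the submitters' processing notes, which name no roles. The sources used here do not give the control library or the thresholds. Per the file headers, each peak has a fold enrichment, a linear ratio, and −log10 values of p and q. The authors' score column equalled 10 times the −log10 q, cut to a whole number, in 100% of rows. Width and distance are in bp. No read counts are held, so depth is unknown.

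Rows were reduced to 1 per peak, peaks sharing at least 1 base were merged, and percentiles of fold enrichment were taken within a list. Genes are the authors' gene column, and all 97 list genes were found in the RefSeq table (GRCm38.p6). The share of all protein-coding genes counts names that match that table. A promoter was listed there for 1 of the 2 members, Nr3c2. Named genes were both receptors, every gene of the nuclear receptor and glucocorticoid pathway lists with a peak, other NR3 genes (1 item is not reported here), and the 3 regions most alike each receptor's. Members and lists were chosen with earlier results of these data known. No test was run. Merging was checked on simulated peaks made either to overlap or to lie far apart, so peaks that barely overlap were not tried. Python 3.11.15, NumPy 2.4.6, pandas 2.3.3 and matplotlib 3.10.9 were used.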

Additional observations from a re-analysis of the deposited data

How the results depend on the processing

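No paired analysis was possible because only WT lists were analysed, with no comparison between groups. A stricter limit, −log10 q of at least 5, left 1 of the 2 receptor regions, that of Nr3c2, with a mean percentile of 84.2 among the fewer peaks. It also left 1 nuclear receptor gene, Nr3c2, and 1 pathway gene, Bag1, and no Nr3c1 peak to rank. Counted in all 3 lists there were 3 nuclear receptor genes, and in any list 9 pathway genes. Without 1 WT replicate, nuclear receptor genes ranged from 3 to 6, pathway genes from 2 to 3, and mean percentiles from 91.4 to 95.9 for Nr3c2 and from 11.4 to 16.1 for Nr3c1. Both receptor regions were kept without any 1 WT replicate. Ranked among the 500 regions of all lists, an alternative chosen after seeing the data, the mean percentile of Nr3c2 was 86.9 and that of Nr3c1 10.1. Ranked by −log10 p they were 90.0 and 11.0. An overlap of at least 50% of the shorter peak changed none of the 3 counts. Genes were also assigned by RefSeq spans, or by the nearest protein-coding gene within 50 kb where no span overlapped. That added 1 pathway gene, Klf9. Depth is unknown, so a site absent from a list cannot be told from one that was too weak to be listed. Lists of unequal length limit any comparison of ranks between libraries.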

Other observations

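The Fam107a region, 9403 to 9424 bp from the gene by the authors' distance column, was in all lists and near the bottom by fold enrichment, with 3.44, 2.25 and 2.88 in WT replicates 1, 2 and 3. Its percentiles were 3.21, 0.192 and 0.820 by fold enrichment, and 64.5, 4.70 and 37.3 by −log10 p. The Nr3c1 region, low by fold enrichment too, had percentiles of 5.99, 19.4 and 7.60 by −log10 p. The Nr2c2 region stood at percentiles of 33.3, 10.9 and 68.9, in lists of different lengths. Fam107a and Nr2c2 were chosen for mention after their values were seen, and no cause was tested.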
